A study of Arabidopsis thaliana with 17 samples.

Results

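CC-type glutaredoxin genes were followed through salt-treated Arabidopsis thaliana seedlings: 9 genes of the 27655 in the count tables, and 9 of the 21 genes listed here as the CC-type family. They are AT4G15660, AT4G15670, AT4G15680, AT4G15690 and AT4G15700, which form a tandem array on chromosome 4, and 4 relatives elsewhere, AT5G18600, AT1G03020, AT3G21460 and AT3G62950. They were chosen by locus, with their change under salt already known from these libraries: AT3G21460 and AT3G62950 were picked out for a steep decline. Values under salt are therefore given below as a description, with no test. None of the 9 carries a symbol in RefSeq, which names 8 of them as thioredoxin superfamily proteins and AT3G21460 as a glutaredoxin family protein.

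Glutaredoxins are small proteins that reduce disulfides with glutathione, and the CC type, named for a pair of neighbouring cysteines in the active site, occurs in land plants. CC-type members bind TGA transcription factors and can bring TOPLESS co-repressors to them, and the best studied of them act in flower development and in the crosstalk of salicylate with jasmonate. Several members of the family are known in Arabidopsis for transcripts that respond to nitrate or cytokinin.

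RNA came from seedlings of 3 lines that had grown hydroponically for 14 days and were collected either before treatment (0 h) or after 24 h in 200 mM NaCl. Col-0 is the wild-type accession, atdgcr14l-1 is a mutant of AtDGCR14L in that background, and OE-6 is the mutant with AtDGCR14L restored behind the 35S promoter, which is constitutive rather than the gene's own. Every group had 3 libraries except untreated Col-0, which had 2, making 17 in all. The labels leave unsaid whether replicates came from separate plants, and a p-value below covers the spread among libraries, which may be technical. The samples used here include no seedlings kept for 24 h without salt, so the salt treatment and the passing of 24 h cannot be told apart.

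Each library held 53058673 to 56464259 estimated counts, and levels are CPM, a library's counts scaled to a common total, after TMM scaling, a correction for differences in library composition. Of all genes, 21282 passed the filter on low counts, all 9 glutaredoxin genes among them. AtDGCR14L (AT3G07790) stood at 57.8 ± 2.96 CPM (SD, n = 2) in Col-0 at 0 h, at 7.85 ± 0.953 (n = 3) in atdgcr14l-1 and at 47.5 ± 3.77 (n = 3) in OE-6. The 24 h libraries of atdgcr14l-1 and OE-6 were the least alike, with a mean Spearman correlation to their own group of 0.974 to 0.987 against 0.993 to 0.996 in the other groups; the lowest in each were replicate 3 of atdgcr14l-1 and replicate 2 of OE-6. Of the 6 root markers, PRP3, SHV2, EXPA7 and CASP1 had group means of 0 to 0.350 CPM, SHR of 6.56 to 14.9 and SCR of 25.7 to 29.4, while the 4 green tissue markers summed to 9857 to 22170 CPM per library. How much root tissue the samples held was not tested.

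All 9 genes hold a pair of adjacent cysteine codons at the same place, base 61 of the coding sequence, the pair that gives the family its name. The windows below, 36 bases each from the RefSeq TAIR10.1 genome and written on the gene's strand, are shown because this site defines the type; capitals mark 12 bases that begin with the pair of cysteine codons.
AT4G15660: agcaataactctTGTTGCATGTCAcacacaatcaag
AT4G15670: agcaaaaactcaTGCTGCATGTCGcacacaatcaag
AT4G15680: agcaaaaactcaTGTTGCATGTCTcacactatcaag
AT4G15690: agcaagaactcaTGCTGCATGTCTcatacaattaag
AT4G15700: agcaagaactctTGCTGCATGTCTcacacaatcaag
AT5G18600: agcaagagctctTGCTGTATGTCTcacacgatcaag
AT1G03020: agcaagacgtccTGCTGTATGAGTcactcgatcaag
AT3G21460: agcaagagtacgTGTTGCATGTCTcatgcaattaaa
AT3G62950: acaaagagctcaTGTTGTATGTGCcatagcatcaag
The array copies differed from AT4G15660 at 3 to 6 bases of this window, AT5G18600 at 6, and AT1G03020, AT3G21460 and AT3G62950 at 10 or 11. The coding sequences, 309 bases long in 8 genes and 312 in AT3G62950, repeated this order. Identity was 88.3% to 93.2% between array copies (10 pairs) and 56.2% to 72.5% in the other 26 pairs.

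The array spans chr4:8925571-8938124 (TAIR10.1), on the plus strand, with 1803 to 2520 bases between neighbouring genes and no other annotated gene inside. All 9 genes have 1 exon and overlap no annotated gene. The near-identity of the copies bears on how reads are assigned: 0.61% to 4.74% of the 50-base windows of an array gene's transcript had a second exact match in the genome, and none of the 100-base windows did, while the other 4 genes had no second match at either length. Values of single array genes are therefore given beside their sum. AT3G62950 lies at chr3:23266227-23267090 between a pair of other family genes, AT3G62930 and AT3G62960, the second of which starts 1550 bases after its end. AT3G62930 is on the minus strand, with 4299 bases and 1 other gene between it and AT3G62950. AT3G21460 (chr3:7557297-7557969), AT1G03020 (chr1:697919-698591) and AT5G18600 (chr5:6183166-6184038) stand alone, all on the minus strand.

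The 5 array genes also share a stretch upstream of their starts. A run of 11 bases, TTAGCTGCAAG, was the element that all 5 array promoters (250 bases before to 50 after the annotated start) had in common; it was found by comparing these promoters with each other, and is shown because it sets the array apart from the 4 relatives, none of which holds it. It occurs on either strand in 9 of 27443 promoters of the same length (0.033%), these 5 included. The run was picked as the longest that these 5 share, so its presence in them was fixed and this share is no test. Windows of 60 bases from RefSeq TAIR10.1, plus strand, carry the run in capitals, and capitals further on mark ACGTG, the core of many G-box and abscisic acid response elements.
AT4G15660 (chr4:8925519-8925578): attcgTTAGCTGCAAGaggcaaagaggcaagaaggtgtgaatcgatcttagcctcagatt
AT4G15670 (chr4:8928876-8928935): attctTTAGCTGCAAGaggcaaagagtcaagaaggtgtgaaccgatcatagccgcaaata
AT4G15680 (chr4:8931460-8931519): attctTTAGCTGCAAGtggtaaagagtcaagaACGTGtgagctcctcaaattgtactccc
AT4G15690 (chr4:8934049-8934108): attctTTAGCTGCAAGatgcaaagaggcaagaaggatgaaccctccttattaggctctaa
AT4G15700 (chr4:8937120-8937179): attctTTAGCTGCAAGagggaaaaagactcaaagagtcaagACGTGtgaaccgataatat
The run began 47 bases before the annotated start of AT4G15660, 150 and 152 bases before those of AT4G15670 and AT4G15680, and 242 and 233 bases before those of AT4G15690 and AT4G15700. ACGTG occurred in 2 of the 9 promoters, those of AT4G15680 and AT4G15700, and in 26.7% of all 27443 promoters, counting both strands. TGACG, the core of TGA factor binding sites, occurred in 0 of the 9 and in 23.1% of all, which says only that these letters are absent from the window.

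Before salt the 9 genes differed widely in level. Per kilobase of transcript, AT5G18600 stood highest in Col-0 at 0 h, at 56.2 ± 9.67 CPM per kb (SD, n = 2), and AT1G03020 lowest, at 2.07 ± 0.249. In between came AT3G21460 at 13.4 ± 0.145 CPM per kb, then AT4G15690 at 11.7 ± 0.0679, AT4G15700 at 11.6 ± 0.758 and AT3G62950 at 11.3 ± 1.30, the last 3 within their spread of each other. AT4G15680 at 6.16 ± 0.0975 CPM per kb and AT4G15660 at 5.85 ± 1.68 overlapped as well. AT4G15670 had a lower mean, 4.32 ± 0.00798, which was still within the SD of AT4G15660. After 24 h of salt AT5G18600 was still the highest in Col-0, at 28.9 ± 5.69 CPM per kb (n = 3), followed by AT4G15700 at 3.13 ± 1.21. AT3G62950 at 0.129 ± 0.0626 and AT3G21460 at 0.0517 ± 0.0448 had moved from the upper ranks to the bottom.

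**Figure D1:**
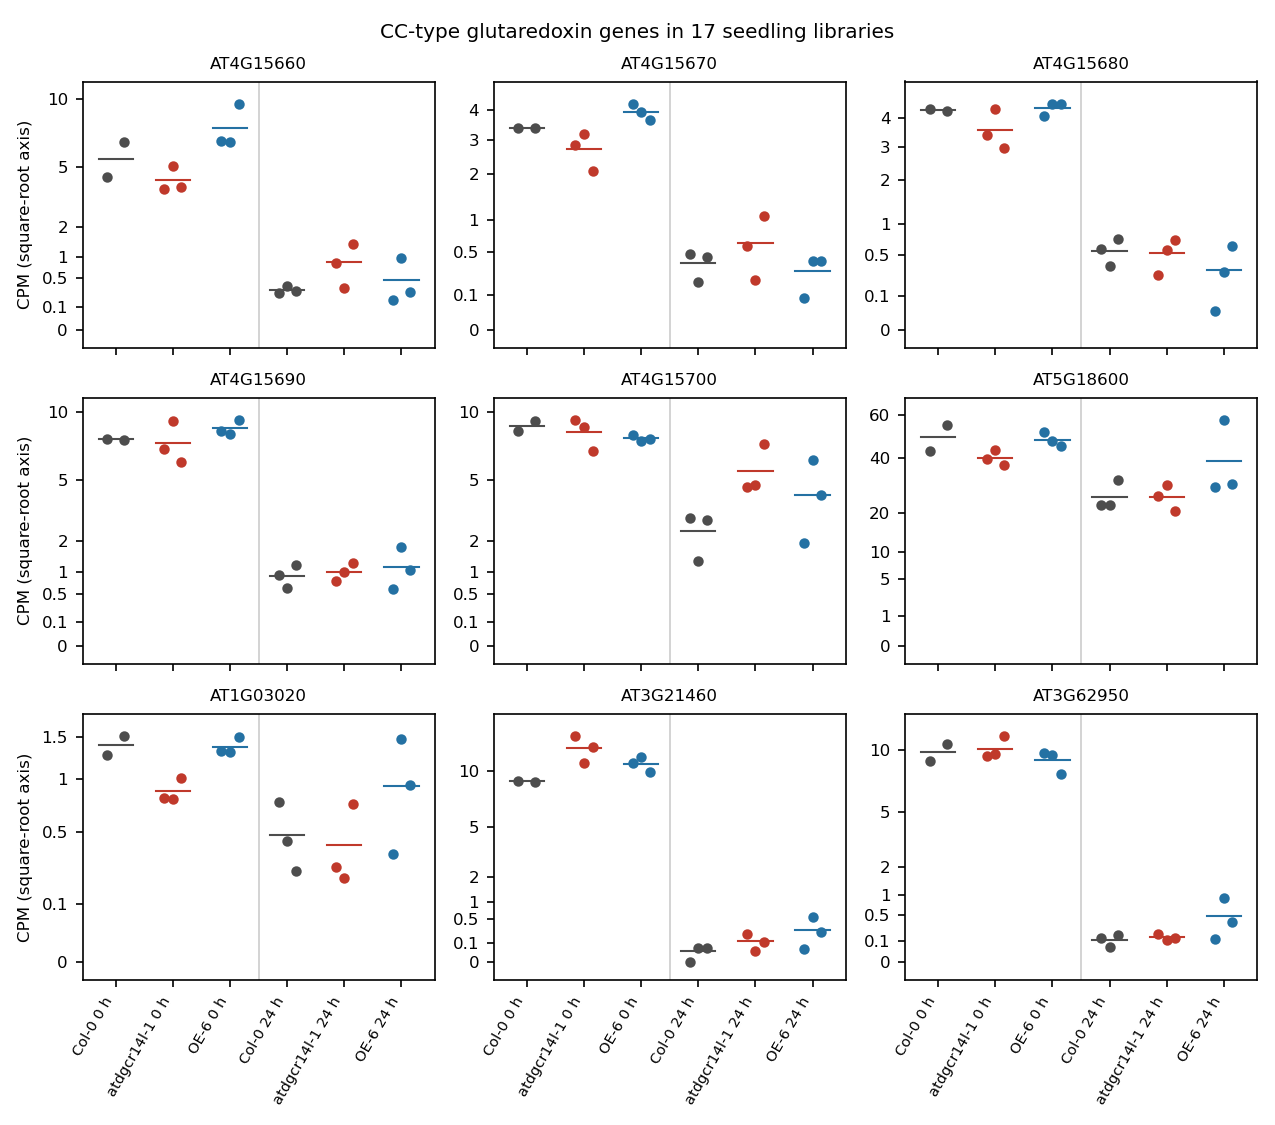
Level of each of the 9 genes in all 17 libraries, in CPM on a square-root axis that differs between panels; points are libraries, horizontal bars are group means, and the grey line parts 0 h from 24 h of 200 mM NaCl. AT3G21460 and AT3G62950 lay at 7.91 to 14.0 CPM at 0 h and under 1 CPM at 24 h, while AT5G18600 kept between 20.7 and 57.6 CPM at 24 h.

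The largest changes under salt were those of AT3G21460 and AT3G62950, the pair picked for them. AT3G21460 stood at 9.07 and 8.93 CPM in the Col-0 libraries at 0 h, at 14.0, 10.9 and 12.8 in atdgcr14l-1 and at 10.9, 11.6 and 9.98 in OE-6. At 24 h it stood at 0, 0.0519 and 0.0525 CPM in Col-0, at 0.216, 0.0346 and 0.108 in atdgcr14l-1 and at 0.0498, 0.555 and 0.246 in OE-6. No 24 h library came near any 0 h library in any line. The Col-0 libraries at 24 h rest on 0, 3 and 3 counts, so the ratio of 0 h to 24 h, 257, has a wide 95% interval of 118 to 702, which covers counting error only. The log2 fold change was -7.92 ± 0.69 (SE) in Col-0, -6.70 ± 0.58 in atdgcr14l-1 and -5.27 ± 0.52 in OE-6. It was -7.43 in atdgcr14l-1 without atdgcr14l-1 24 h replicate 1, and -6.19 in OE-6 without OE-6 24 h replicate 2.

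AT3G62950 followed much the same course. At 0 h it stood at 9.01 and 10.6 CPM in Col-0, at 9.44, 9.64 and 11.36 in atdgcr14l-1 and at 9.76, 9.58 and 7.91 in OE-6. At 24 h it stood at 0.124, 0.0519 and 0.158 CPM in Col-0, at 0.180, 0.104 and 0.126 in atdgcr14l-1 and at 0.116, 0.926 and 0.352 in OE-6. Between 1.14% and 1.35% of the 0 h level was left in Col-0 and atdgcr14l-1, and 5.11% in OE-6, where replicate 2 stood far above the other 2 libraries. The log2 fold change was -6.44 ± 0.55 in Col-0, -6.19 ± 0.52 in atdgcr14l-1 and -4.30 ± 0.45 in OE-6, the last -5.28 without OE-6 24 h replicate 2. In RNA taken from many cells together, fewer cells that express a gene and less RNA per cell cannot be told apart. The nearest family genes to AT3G62950 on chromosome 3 were also lower at 24 h in Col-0, but by less. Their log2 fold changes were -2.77 ± 0.39 for AT3G62930 and -1.40 ± 0.43 for AT3G62960.

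The 5 array genes were lower at 24 h in each line, but not evenly. AT4G15660, the first of the array, stood at 4.39 and 6.62 CPM in Col-0 at 0 h, at 3.70, 5.06 and 3.82 in atdgcr14l-1 and at 6.71, 6.63 and 9.57 in OE-6. At 24 h it stood at 0.249, 0.363 and 0.280 CPM in Col-0, at 0.845, 0.329 and 1.39 in atdgcr14l-1 and at 0.166, 0.963 and 0.264 in OE-6. The 0 h and 24 h libraries were well apart, and 2 of the 3 atdgcr14l-1 libraries at 24 h lay above all 3 of Col-0. AT4G15670, AT4G15680 and AT4G15690 had group means of 2.70 to 8.64 CPM at 0 h and of 0.286 to 1.14 CPM at 24 h. Their log2 fold changes ran from -3.19 to -2.94 in Col-0, from -2.90 to -2.12 in atdgcr14l-1 and from -3.78 to -2.93 in OE-6. That of AT4G15670 in atdgcr14l-1, -2.12, was -2.78 without atdgcr14l-1 24 h replicate 3, and that of AT4G15680 in OE-6, -3.77, was -4.75 without OE-6 24 h replicate 3. For AT4G15660 the log2 fold change was -4.20 ± 0.60 in Col-0, -2.30 ± 0.52 in atdgcr14l-1 and -4.05 ± 0.56 in OE-6, the last -5.14 without OE-6 24 h replicate 2.

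AT4G15700, the last of the array, kept more of its transcript than the other 4. It stood at 8.46 and 9.28 CPM in Col-0 at 0 h, at 9.31, 8.76 and 6.94 in atdgcr14l-1 and at 8.15, 7.66 and 7.81 in OE-6. At 24 h it stood at 2.99, 1.33 and 2.89 CPM in Col-0, at 4.58, 4.75 and 7.42 in atdgcr14l-1 and at 1.92, 6.33 and 4.18 in OE-6. The groups overlapped in atdgcr14l-1, where the highest 24 h library passed the lowest 0 h library, and not in Col-0 or OE-6. The share of the 0 h level left at 24 h was 27.1% in Col-0, 67.0% in atdgcr14l-1 and 52.7% in OE-6, and the log2 fold change was -1.88 ± 0.39, -0.58 ± 0.35 and -0.93 ± 0.35. Because the other copies were lower still, AT4G15700 made up 29.7% ± 0.0849 (n = 2) of the array's counts in Col-0 at 0 h and 52.1% ± 5.34 (n = 3) at 24 h. Its share went from 31.9% ± 3.40 to 65.7% ± 3.42 in atdgcr14l-1 and from 24.3% ± 1.74 to 66.0% ± 2.64 in OE-6 (n = 3 each). Summed over the 5 genes, the array held 29.8 ± 2.04 CPM in Col-0 at 0 h and 4.53 ± 1.46 at 24 h, and 15.2% of its 0 h level was left there, against 32.7% in atdgcr14l-1 and 19.6% in OE-6.

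**Figure D2:**
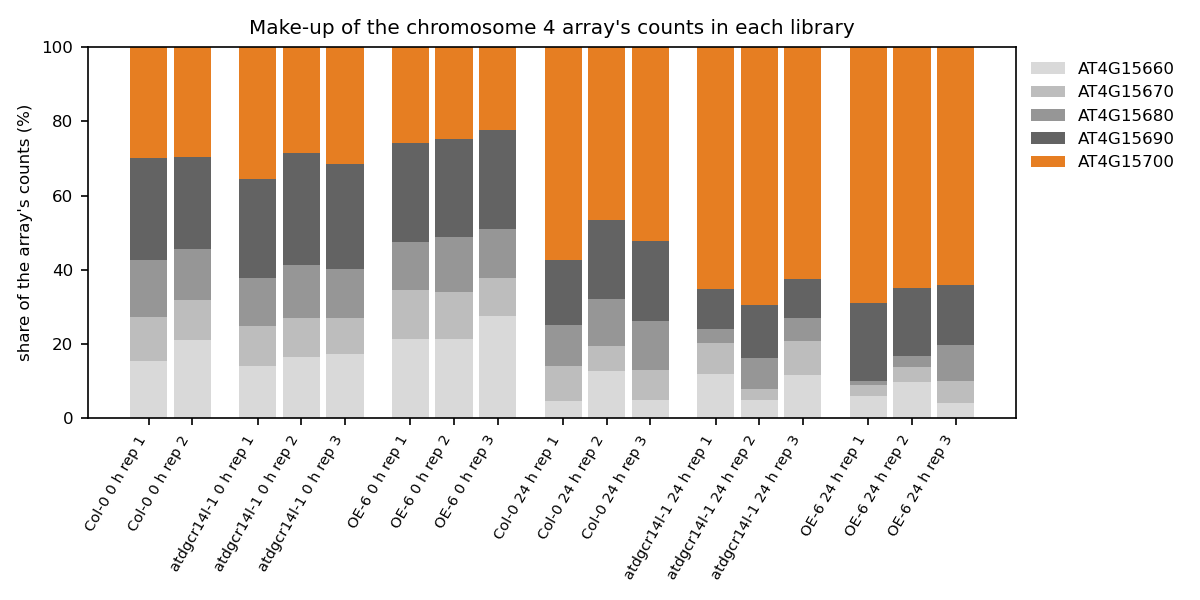
Make-up of the counts of the chromosome 4 array in each of the 17 libraries, as the percentage that each of the 5 genes contributes; each bar is 1 library. AT4G15700, in orange, made up 22.4% to 35.4% of the counts in the 0 h libraries and 46.7% to 69.4% in those of 24 h.

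AT5G18600 had the log2 fold change nearest to 0 in Col-0 and OE-6, and AT4G15700 in atdgcr14l-1. AT5G18600 stood at 43.1 and 55.1 CPM in Col-0 at 0 h, at 39.4, 43.4 and 37.0 in atdgcr14l-1 and at 51.5, 47.2 and 45.3 in OE-6. At 24 h it stood at 22.3, 22.4 and 30.9 CPM in Col-0, at 25.3, 29.4 and 20.7 in atdgcr14l-1 and at 28.7, 57.6 and 29.7 in OE-6. In OE-6 replicate 2 at 24 h exceeded every 0 h library, whereas the other 16 libraries kept the order of the times. The log2 fold change was -0.96 ± 0.25 in Col-0, -0.67 ± 0.23 in atdgcr14l-1 and -0.31 ± 0.23 in OE-6, the last -0.72 without OE-6 24 h replicate 2. AT1G03020, the lowest of the 9 at 0 h, went from 1.40 ± 0.168 CPM (n = 2) to 0.480 ± 0.263 (n = 3) in Col-0, from 0.865 ± 0.121 to 0.405 ± 0.290 in atdgcr14l-1 and from 1.38 ± 0.105 to 0.920 ± 0.566 in OE-6 (n = 3 each). Its groups overlapped in OE-6 alone. The log2 fold change of AT1G03020 was -1.53 ± 0.57, -1.09 ± 0.53 and -0.59 ± 0.51, the second -1.85 without atdgcr14l-1 24 h replicate 3.

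**Figure D3:**
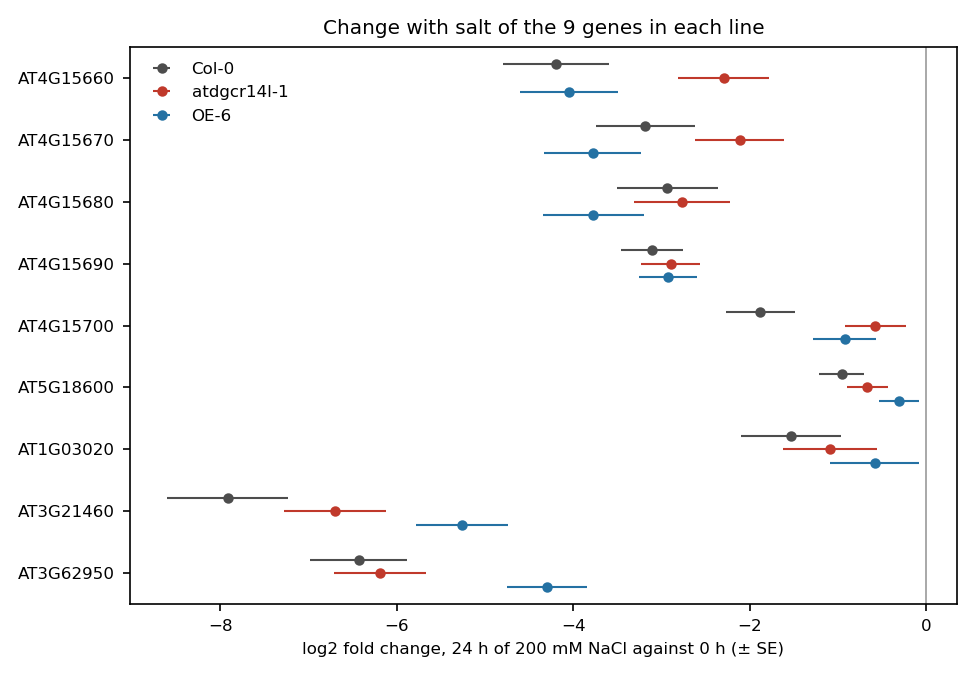
Change of each gene between 0 h and 24 h of 200 mM NaCl in Col-0 (grey), atdgcr14l-1 (red) and OE-6 (blue), as edgeR's log2 fold change with bars of 1 standard error. All 27 points lie below 0, from -7.92 for AT3G21460 in Col-0 to -0.31 for AT5G18600 in OE-6.

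Taken as a list, the 9 genes had a median log2 fold change under salt of -3.11 in Col-0, -2.30 in atdgcr14l-1 and -3.77 in OE-6, beside 0.03 for all tested genes in each line. In Col-0 the 24 h libraries lay below all 0 h libraries for 9 of 9 genes, where 34.3% of all tested genes met this condition. In atdgcr14l-1 it held for 8 of 9 (32% of all tested) and in OE-6 for 7 of 9 (29.1%). These counts are a description only. All 9 genes were chosen with these changes already known, and AT3G21460 and AT3G62950 were picked for them.

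Whether AtDGCR14L bears on these genes was addressed by comparing the lines at each time. The levels of AT3G21460 and AT3G62950 at both times entered their choice, so their values are given as a description and the tests are read for the other 7 genes. At 0 h none of the 7 was called between atdgcr14l-1 and Col-0, where 2.03% of all 21282 tested genes were, by edgeR's quasi-likelihood test at a Benjamini-Hochberg adjusted p under 0.05. Log2 fold changes lay between -0.69 ± 0.56 for AT1G03020 and 0.48 ± 0.46 for AT3G21460. None was called between OE-6 and atdgcr14l-1 at 0 h either (4.57% of all), nor between OE-6 and Col-0 (0.0141%). At an unadjusted p under 0.05 the count was also 0 of 7 in each of the 3 comparisons, where 12.4%, 16.4% and 2.05% of all tested genes passed. It was 0 of 7 with DESeq2 after adjustment too, which called 4.33%, 7.52% and 0.113% of all. A fit of the compared groups alone, by contrast, called 3 of the 7 between OE-6 and atdgcr14l-1, with 16% of all genes. These were AT4G15660, AT4G15670 and AT5G18600. In the fit of all 6 groups the summed array had a value of 0.31 ± 0.35 there (adjusted p = 0.764, edgeR).

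At 24 h AT4G15700 was higher in atdgcr14l-1 than in Col-0, the only call among the 7 genes where 12.4% of all tested genes were called and 7.71% were called higher. Its log2 fold change was 1.22 ± 0.36 (adjusted p = 0.0413, edgeR), and all 3 mutant libraries lay above all 3 of Col-0. The call is at the edge of the threshold: it ended, at adjusted p of 0.0522 to 0.167, when any 1 of 12 of the 17 libraries was left out, namely the 8 libraries of 0 h, the 3 of Col-0 at 24 h and atdgcr14l-1 24 h replicate 3. It also ended with both that library and OE-6 24 h replicate 2 left out (0.96, adjusted p = 0.0737), with no filter on low counts (0.0524) and in a fit of the compared groups alone (0.0829), while DESeq2 called it (0.00742), with 18.6% of all tested genes. The array summed into 1 row gave 0.92 ± 0.36 (adjusted p = 0.11). AT4G15660 had a log2 fold change of 1.51 ± 0.57 (adjusted p = 0.0944), and was called without atdgcr14l-1 24 h replicate 2 (0.0277) or OE-6 24 h replicate 2 (0.0262). DESeq2 called AT4G15660 too. The 3 genes between them in the array had log2 fold changes of 0.75 ± 0.53, -0.11 ± 0.55 and 0.15 ± 0.33, AT5G18600 one of -0.01 ± 0.23 and AT1G03020 one of -0.25 ± 0.54. At an unadjusted p under 0.05, 2 of the 7 genes passed, AT4G15660 and AT4G15700, and 29% of all. The values of AT3G21460 and AT3G62950 were 1.70 ± 0.95 and 0.29 ± 0.67.

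OE-6 against atdgcr14l-1 at 24 h gave no call among the 7 genes, where 12% of all tested genes were called. A fit of these groups alone called 0.0343% of all genes and again none of the 7. Nearly every call of this comparison was thus lost in that fit, not only those of the genes named below. AT5G18600 had a value of 0.62 ± 0.23 (adjusted p = 0.0903, edgeR). It was called when OE-6 24 h replicate 1, its lowest OE-6 library, was left out (0.0295), with 2 of the 7 genes and 19.6% of all called in that fit. Without OE-6 24 h replicate 2, its highest, the log2 fold change was 0.22. In the array the direction was the other way for 4 of the 5 genes, from -1.12 ± 0.54 for AT4G15670 to -0.43 ± 0.35 for AT4G15700, none of them called with all libraries. AT4G15670 was called without atdgcr14l-1 24 h replicate 2, with 18.1% of all genes, and AT4G15660 without OE-6 24 h replicate 2, with 7.12%. The array summed into 1 row had a value of -0.44 ± 0.36 (adjusted p = 0.446, edgeR). AT1G03020 had a value of 1.18 ± 0.53, or 1.93 without atdgcr14l-1 24 h replicate 3. At an unadjusted p under 0.05, 2 of the 7 genes passed and 29.9% of all, and DESeq2 called 1 of the 7 and 18.5% of all. AT3G62950 stood at 1.73 ± 0.55, or 0.76 without OE-6 24 h replicate 2, and AT3G21460 at 1.22 ± 0.66.

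**Figure D4:**
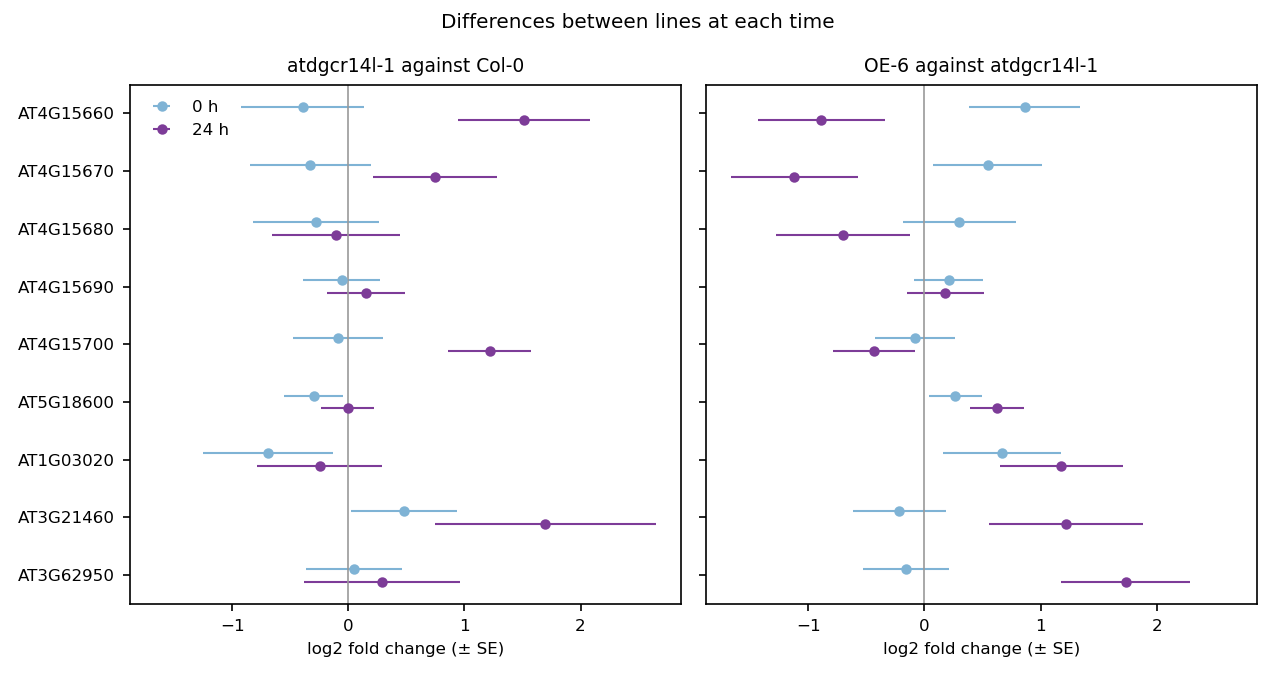
Differences between lines for each gene at 0 h (light blue) and at 24 h of 200 mM NaCl (purple), as log2 fold change with bars of 1 standard error; atdgcr14l-1 against Col-0 on the left, OE-6 against atdgcr14l-1 on the right. At 0 h the points lie between -0.69 and 0.86, and at 24 h between -1.12 and 1.73, with AT4G15700 on the left the only one called.

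Between OE-6 and Col-0 at 24 h none of the 7 genes was called, where 0.0047% of all tested genes were called. The log2 fold change was 2.91 ± 0.83 for AT3G21460 and 2.02 ± 0.57 for AT3G62950, from levels that were under 1 CPM in every library; without OE-6 24 h replicate 2 they were 1.99 and 1.05. AT5G18600 had a value of 0.62 ± 0.23 (adjusted p = 0.57, edgeR). AT4G15700, the gene called between atdgcr14l-1 and Col-0 at 24 h, had one of 0.79 ± 0.36 (adjusted p = 0.621), or 0.345 to 1.129 with 1 library left out. The summed array had one of 0.49 ± 0.36 (adjusted p = 0.737, edgeR). At an unadjusted p under 0.05, 2 of the 7 passed and 7.96% of all, and DESeq2 called 0 of the 7 and 0.216% of all.

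The difference in the salt response between lines was tested for the 7 genes whose own response had not singled them out, though it was known when they were chosen. None was called for atdgcr14l-1 against Col-0, where 0.0047% of all tested genes were, or for OE-6 against atdgcr14l-1 (0.0094%). The largest values in the first were 1.90 ± 0.77 for AT4G15660 (unadjusted p = 0.0272, adjusted p = 0.509, edgeR) and 1.31 ± 0.52 for AT4G15700 (0.0258 and 0.509). In the second they were -1.75 ± 0.72 for AT4G15660 (0.0296 and 0.46) and -1.66 ± 0.72 for AT4G15670 (0.0358 and 0.487). The first was -2.85 without OE-6 24 h replicate 2, and the second -1.001 without atdgcr14l-1 24 h replicate 3. In each comparison 2 of the 7 genes passed an unadjusted p under 0.05, as did 8.93% and 9.77% of all, and DESeq2 called 0 of the 7 and 0.573% and 1.11% of all. For AT3G21460 and AT3G62950 the second difference is given as a description, 1.43 ± 0.77 and 1.89 ± 0.67.

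The rest of the CC-type family did not share one direction under salt. Of the other 12 genes listed, 11 were tested. In Col-0, 3 rose and 6 fell (25.4% and 21.4% of all tested genes), in atdgcr14l-1 4 rose and 5 fell (31.3% and 26.7%), and in OE-6 4 rose and 4 fell (29.5% and 25.7%). Their median log2 fold change was -0.85, -0.07 and 0.11. GRX480, annotated as a partner of TGA factors that represses jasmonate-responsive transcription, rose most, from 0.0564 ± 0.0249 CPM to 4.78 ± 0.931 in Col-0 (log2 fold change 6.34 ± 0.92, adjusted p = 8.05e-05, edgeR). It rose in atdgcr14l-1 and OE-6 as well, by 4.72 ± 0.65 and 4.32 ± 0.66. AT4G33040 rose from 3.19 ± 0.227 to 18.6 ± 2.22 CPM in Col-0, and was higher in OE-6 than in atdgcr14l-1 at 24 h, by 0.60 ± 0.15 (adjusted p = 0.0205), a difference lost without atdgcr14l-1 24 h replicate 3 (0.0696) or OE-6 24 h replicate 2 (0.0791), without both (0.164) and in a fit of these groups alone (0.238).

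ROXY2, which with ROXY1 is needed for anther development, fell most in Col-0, from 0.822 ± 0.120 CPM to 0.0115 ± 0.0200 (log2 fold change -5.89 ± 1.18, adjusted p = 0.00094, edgeR). ROXY1 itself had group means of 0 to 0.0372 CPM and was not tested. The most abundant faller was AT2G47880, from 48.6 ± 0.743 to 8.84 ± 4.73 CPM in Col-0 (-2.46 ± 0.32), while AT2G47870, which ends 1134 bases upstream of it on the same strand, had a value of 0.03 ± 0.46. Family genes near each other thus had changes of unlike size both here and beside AT3G62950, though the difference between neighbours was not tested. AT3G62930 and AT3G62960 were lower at 24 h in Col-0, as AT3G62950 was.

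**Figure D5:**
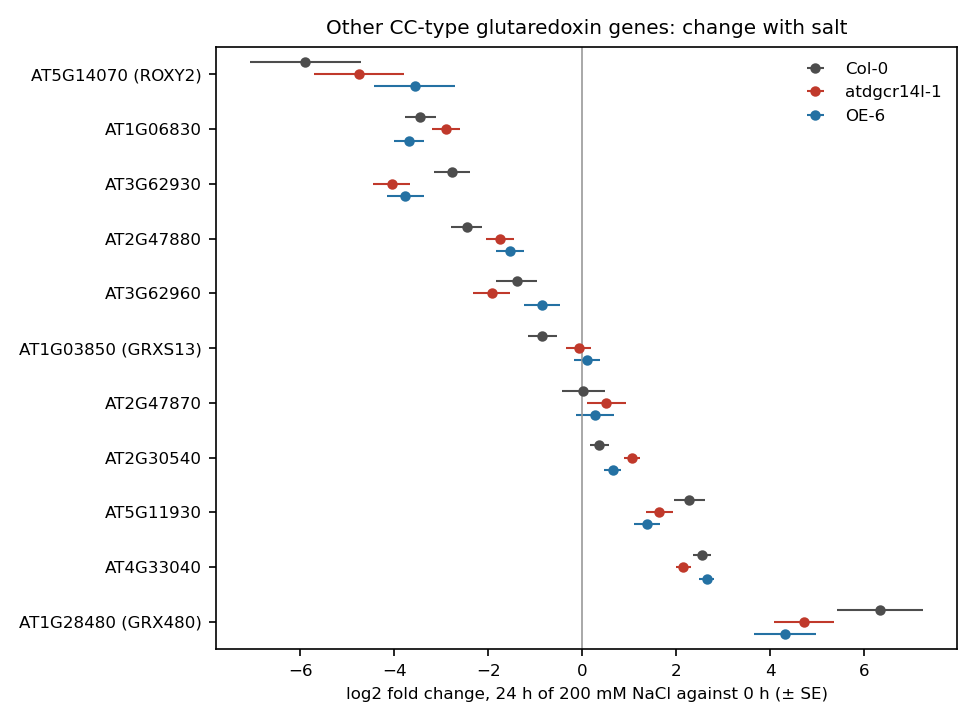
Change of the 11 tested CC-type glutaredoxin genes outside the set between 0 h and 24 h of 200 mM NaCl in Col-0 (grey), atdgcr14l-1 (red) and OE-6 (blue), as log2 fold change with bars of 1 standard error. In Col-0 the values run from -5.89 for ROXY2 to 6.34 for GRX480.

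Other glutaredoxins changed in both directions. Of the 10 CPYC and CGFS glutaredoxins, the types found in most organisms, 4 rose and 2 fell in Col-0, beside 25.4% and 21.4% of all tested genes. AT1G77370 rose from 14.9 ± 0.836 to 36.9 ± 4.69 CPM (1.30 ± 0.12, adjusted p = 1.42e-06, edgeR), and CXIP1, a CGFS glutaredoxin of the plastid, fell by 0.47 ± 0.14 on the log2 scale, from 114 ± 13.6 to 82.6 ± 10.9 CPM. The count of 2 was 0 without Col-0 0 h replicate 2 and 1 without Col-0 24 h replicate 3. Of 4 genes of glutathione synthesis and reduction, GR1, a glutathione reductase, rose from 45.3 ± 5.38 to 104 ± 14.0 CPM (1.21 ± 0.23), and GR fell by 0.49 ± 0.11. GR1 was also higher in atdgcr14l-1 than in Col-0 at 24 h (0.91 ± 0.20, adjusted p = 0.0104), a call lost without Col-0 24 h replicate 1 (0.0577) and in a fit of these groups alone (0.102). It was lower in OE-6 than in atdgcr14l-1 at 24 h (-0.73 ± 0.20, adjusted p = 0.0309), which was lost without atdgcr14l-1 24 h replicate 3 (0.0903) or OE-6 24 h replicate 2 (0.0818) or 3 (0.0855), without the first 2 together (0.137) and in a fit of these groups alone (0.333).

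Of the 10 TGA factors, the proteins that CC-type glutaredoxins bind, 3 rose and none fell in Col-0, where 25.4% of all tested genes rose and 21.4% fell. The count that fell changed under 8 of 25 alternatives and reached 2. It was 1 without Col-0 0 h replicate 2, atdgcr14l-1 24 h replicate 3 or OE-6 24 h replicate 2. TGA7 rose most, from 12.1 ± 2.02 to 25.4 ± 1.67 CPM (1.08 ± 0.15, adjusted p = 4.36e-05, edgeR). TGA4 was lower and TGA3 higher in OE-6 than in atdgcr14l-1 at 24 h, by -0.56 ± 0.11 and 0.54 ± 0.12, calls that ended with both libraries that stood apart at 24 h left out (adjusted p = 0.0544 and 0.0622, edgeR) and in a fit of these groups alone (0.226 and 0.253). Of the 5 TOPLESS co-repressors, 2 fell in Col-0 (21.4% of all tested genes fell) and none rose, and TPR1 fell most, by 0.50 ± 0.14. That count was 0 without Col-0 0 h replicate 1 and 1 without Col-0 24 h replicate 1. WSIP2 was higher in atdgcr14l-1 than in Col-0 at 24 h (0.36 ± 0.11, adjusted p = 0.0404, edgeR) and TPR3 lower in OE-6 than in atdgcr14l-1 at 0 h (-0.40 ± 0.11, adjusted p = 0.0489), calls lost under 13 and 14 of 25 alternatives.

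Most of the called nitrate- and cytokinin-responsive genes fell. Of 17 tested nitrate-response genes, 2 rose and 7 fell in Col-0, 3 rose and 11 fell in atdgcr14l-1 and 2 rose and 10 fell in OE-6. Of all tested genes, 25.4%, 31.3% and 29.5% rose in Col-0, atdgcr14l-1 and OE-6, and 21.4%, 26.7% and 25.7% fell. BT2, a BTB-domain protein, fell from 112 ± 24.9 to 7.87 ± 2.49 CPM in Col-0 (-3.83 ± 0.30, adjusted p = 5.7e-07, edgeR), and WR3 rose from 5.01 ± 0.956 to 18.9 ± 2.62 CPM (1.91 ± 0.45). UPM1, an enzyme of sirohaem synthesis, was lower in atdgcr14l-1 than in Col-0 at 24 h, by -0.46 ± 0.08 (adjusted p = 0.0032), and higher in OE-6 than in atdgcr14l-1 there (0.44 ± 0.08, adjusted p = 0.00486), the second call lost in a fit of these groups alone (0.196). Of 8 tested type-A response regulators, the early transcripts of cytokinin signalling, 6 fell in Col-0, 8 in atdgcr14l-1 and 7 in OE-6. None rose in any line, and the shares of all tested genes are those given above. ARR6 fell most in Col-0, from 18.0 ± 1.58 to 1.87 ± 0.233 CPM (-3.26 ± 0.25). ARR9 was higher in atdgcr14l-1 than in Col-0 at 0 h (0.64 ± 0.11, adjusted p = 0.00438), a call lost without Col-0 0 h replicate 1 (0.0809) or 2 (0.0781), and lower in OE-6 than in atdgcr14l-1 (-0.64 ± 0.09, adjusted p = 0.00105). None of the 7 glutaredoxins tested was called in either comparison in the fit of all 6 groups.

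Markers of tissues moved with the same contrasts, and their part in the values of the 9 genes was not tested. The 4 green tissue markers summed to 17210 to 20570 CPM in Col-0 at 0 h and to 11560 to 13190 at 24 h. In Col-0 3 of 4 fell, where 21.4% of all tested genes did, CAB2 most (-1.36 ± 0.28, adjusted p = 0.00122, edgeR). CAB2 was higher in atdgcr14l-1 than in Col-0 at 24 h (1.22 ± 0.26, adjusted p = 0.00905), a call lost in a fit of these groups alone (0.0682). It was the only 1 of the 4 called there, where 7.71% of all tested genes were called higher. The median log2 fold change of the 4 was -0.03, and their sum in atdgcr14l-1 at 24 h, 12560 to 14670 CPM, overlapped that of Col-0. The 4 phloem markers summed to 458 to 509 CPM in Col-0 at 0 h and to 514 to 545 at 24 h, where APL was higher (0.58 ± 0.14, adjusted p = 0.00396, edgeR) and SWEET11 lower (-0.52 ± 0.20, adjusted p = 0.0441, lost under 12 of 25 alternatives). In OE-6 at 24 h their sum ran from 531 to 991 CPM, and SUC2 was higher there than in atdgcr14l-1 (0.82 ± 0.21, adjusted p = 0.0222), a call lost without atdgcr14l-1 24 h replicate 1 or 3 or OE-6 24 h replicate 2, or in a fit of these groups alone (0.305). SWEET11 was higher there too (0.68 ± 0.18, adjusted p = 0.0278), again lost without atdgcr14l-1 24 h replicate 3 or OE-6 24 h replicate 2. The 6 root markers summed to 41.1 to 44.2 CPM in Col-0 at 0 h and to 36.4 to 38.2 at 24 h. PRP3 fell there (-2.07 ± 0.70, adjusted p = 0.027, edgeR) and was lower in OE-6 than in atdgcr14l-1 at 24 h (-4.45 ± 1.34, adjusted p = 0.0487), calls lost under 3 of 24 and 16 of 22 alternatives.

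Genes most like the summed array, AT3G21460 and AT3G62950 across all 17 libraries were looked up. In a search of the 15280 genes that averaged 5 CPM or more, the summed array was most like BR6OX2, an enzyme of brassinosteroid synthesis (Pearson r of log2 CPM 0.975), then AT3G59870, CLC-A, a nitrate carrier of the vacuole, AT1G18810 and ZKT (0.957 to 0.943). BR6OX2 stood at 56.5 ± 1.30 CPM in Col-0 at 0 h and at 24.6 ± 2.17 at 24 h. AT3G62950 and AT3G21460 were both most like HBI1, a growth-promoting transcription factor, with r of 0.989 and 0.98, and both had CRK21 and HCF173 among the next 4. HBI1 went from 140 ± 15.9 to 19.1 ± 1.31 CPM in Col-0. All 17 points share the split into 0 h and 24 h, and within groups, as deviations from the group mean, the same correlations were lower, 0.801 for BR6OX2 and 0.687 and 0.654 for HBI1.

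Correlations among the 9 genes within groups differed widely from pair to pair. As deviations from group means over the 17 libraries, the 10 pairs within the array had correlations of 0.289 to 0.919, with a median of 0.682, and the other 26 pairs 0.044 to 0.821, with a median of 0.54. The highest was that of AT4G15690 with AT4G15700, which are neighbours, and the lowest that of AT5G18600 with AT1G03020. These libraries share their depth and scaling, and no test was made.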

How the data were processed

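Poly(A) RNA was made into strand-specific dUTP libraries for a DNBSEQ instrument, per the labels' protocols. The authors deposited estimated counts (expected counts) per gene, already whole numbers, which were rounded to whole numbers as a precaution. Bowtie2 2.4.5, DESeq2 2.11.40.7 and StringTie 2.1.7 are named in the submitters' processing notes. How they were combined, the build, strandedness in counting and the treatment of multiply matching reads were not given in the sources used here.

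Counts were analysed with edgeR 4.0.16 in R 4.3.3: filterByExpr, TMM scaling, and 1 robust quasi-likelihood fit of all 6 groups, with Benjamini-Hochberg adjustment over 21282 genes and calls at an adjusted p under 0.05. Levels are TMM-scaled CPM, and log2 CPM for correlations used a prior count of 2. The scripts were tested on simulated data. Alternatives were RLE scaling, no filter, a filter at a mean of 5 CPM, a model restricted to the groups compared, a replicate block, DESeq2 1.42.0, the array summed to 1 row and each library left out. Omitting both libraries that stood apart at 24 h (replicate 3 of atdgcr14l-1 and replicate 2 of OE-6) was added after seeing the data.

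Positions, transcript lengths and sequences come from RefSeq TAIR10.1, whose locus tags matched 27445 of the 27655 gene IDs. The gene models in the files may differ from it. Python 3.11.15 with pandas 2.3.3, scipy 1.17.1, Biopython 1.88 and matplotlib 3.10.9 was used for sequences, intervals and figures.

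The 9 genes and all lists (other CC-type glutaredoxins, CPYC and CGFS glutaredoxins, glutathione, TGA factors, TOPLESS co-repressors, nitrate response, type-A response regulators, and root, phloem and green tissue markers) were chosen with earlier results of these data known. Named from each list were the called genes with the largest rise and fall in Col-0 and up to 2 called between lines with the smallest p. AT3G62930, AT3G62960, AT2G47870 and AT2G47880 were named for their position beside family genes, after their values were seen. Line contrasts were planned for all 9 genes; since the levels of AT3G21460 and AT3G62950 entered their choice, the text reads them for the other 7. Other genes were named for the highest correlation with the array, AT3G21460 or AT3G62950.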

Additional observations from a re-analysis of the deposited data

How the results depend on the processing

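With 25 alternatives, no interaction between line and salt was called for the 7 genes tested, and none of the 9 genes was called for OE-6 against Col-0 at 0 h. Counts between lines here cover all 9 genes, AT3G21460 and AT3G62950 included, whose levels entered their choice; nothing is read from their part. The count for atdgcr14l-1 against Col-0 at 24 h, 1 as reported, was 0 with no filter, with only the groups compared, with the array summed and with both libraries that stood apart left out, 2 with DESeq2, and 0 to 2 with 1 library left out. A fit of only the groups compared, which has fewer samples, called 1 gene for atdgcr14l-1 against Col-0 at 0 h and 3 for OE-6 against atdgcr14l-1 at 0 h, where it called 11.6% and 16% of all genes against 2.03% and 4.57% as reported. The 1 gene was not among the 7 tested genes, while the 3 all were: AT4G15660, AT4G15670 and AT5G18600. For OE-6 against atdgcr14l-1 at 24 h, 0 as reported, DESeq2 called 2 (18.5% of all genes) and leaving out 1 library 0 to 4 (19.6% of all genes where it was 4). For OE-6 against Col-0 at 24 h DESeq2 called 1 (0.216% of all). The cause of these changes was not tested.

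The median log2 fold change of the 9 genes under salt became -1.88, -0.72 and -0.95 in Col-0, atdgcr14l-1 and OE-6 with the filter at 5 CPM, which removes most of the array, and -2.72, -1.61 and -2.36 with the array summed. With 1 library left out it ran from -3.33 to -2.88, from -2.83 to -1.91 and from -3.79 to -3.23. At 24 h AT3G21460 and AT3G62950 rest on 0 to 50 counts per library, AT1G03020 and the array genes other than AT4G15700 on 2 to 96, AT4G15700 on 77 to 412 and AT5G18600 on 1148 to 3111.

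With the replicate number as a block, AT4G15700 was not called for atdgcr14l-1 against Col-0 at 24 h (adjusted p = 0.0632, edgeR), so that count was 0, and no other count changed. The numbers showed little sign of pairing. Over 40 pairs of same-numbered samples from different groups, deviations correlated between -0.162 and 0.324, over 0.1 in 4 of them. Of the 17 samples, 6 were closest to their own number. Between 0 h and 24 h of OE-6 the values were 0.324, 0.151 and 0.077 for replicates 1, 2 and 3. Weak correlations do not exclude that samples were paired.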
